A study of Mus musculus with 15 samples.

Results

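Tyrobp encodes DAP12, a signalling adaptor of microglia, the resident macrophages of the brain, and its transcript was abundant in some cytosol samples of hippocampal interneurons and nearly absent from others. The samples described here were the 10 VGT3+ and Sst+ interneurons of the 15 cells in the series, grouped by their measured Tyrobp level: 5 Tyrobp-rich cells with at least 1000 TPM (transcript abundance per gene length, scaled to 1000000 in each cell) and 5 Tyrobp-poor cells under 1000 TPM. The Tyrobp-rich cells were VGT3.1, VGT3.3, VGT3.4, Sst.4 and Sst.5, and the Tyrobp-poor cells were VGT3.2, VGT3.5, Sst.1, Sst.2 and Sst.3, where the number after the point is the replicate in the labels. The remaining 5 cells, all Pv+ interneurons, had 3142 TPM or more and were left out of the grouping. Because the groups were chosen by a measured value, they are not a treatment or genotype, and all differences between them are descriptions without a test. Transcripts of the interneuron itself and RNA of another cell drawn into the same pipette cannot be told apart in these samples.

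All cells came from C57BL6 mice 6 to 7 days old, whose hippocampus was kept as organotypic slice cultures. In each line a Cre recombinase under the gene of the cell class (VGT3, the vesicular glutamate transporter 3; Sst, somatostatin; Pv, parvalbumin) switched on a red fluorescent reporter, so a cell was picked by its colour, and reporter expression reports any past activity of that promoter. The cytosol of 1 cell was drawn into a patch pipette and made into 1 library, with 5 cells per type. The labels name no animal, slice or culture for a cell, so that cells which may share an animal cannot be told from cells which do not. For 5 VGT3+ cells, VGT3.1 to VGT3.3 were in library batch G556 and VGT3.4 and VGT3.5 in batch G709, and all Sst+ and Pv+ cells were in G709.

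Microglia are labelled by a set of surface receptors, complement genes and the lysosomal protease Ctss, which neurons make little of. Receptors such as Fcgr3, Trem2 and Siglech carry no signalling tail of their own and pass their signal through the adaptors Tyrobp and Fcer1g to kinases of the Syk family. Microglia survive on Csf1r signalling, and neurons supply one of its ligands, Il34. In the following, levels are TPM, which is scaled by gene length, and a difference is the Tyrobp-rich mean minus the Tyrobp-poor mean of log2(TPM + 1) after each gene was centred within its interneuron type.

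The 10 libraries held an estimated 14100000 to 32200000 reads on genes. The number of genes with a value above 0 was 5463 in VGT3.3 and 6005 in VGT3.4, both Tyrobp-rich, against 7226 to 10191 in the other 8 cells. The cell-class labels held in both groups. Slc17a8, which encodes VGT3, was at 198, 106 and 233 TPM in the Tyrobp-rich and at 206 and 354 TPM in the Tyrobp-poor VGT3+ cells, and at no more than 0.0516 TPM in any Sst+ cell. Sst itself was at 2773 and 1804 TPM in the Tyrobp-rich and at 2689, 3690 and 4539 TPM in the Tyrobp-poor Sst+ cells, and did not pass 0.348 TPM in VGT3+ cells.

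Tyrobp was graded in VGT3+ cells and all or none in Sst+ cells. Its level was 13826 TPM in VGT3.1, 9268 in VGT3.4, 2616 in VGT3.3, 652 in VGT3.2 and 91.4 in VGT3.5. In Sst+ cells it was 3148 TPM in Sst.4 and 1016 in Sst.5, but 0.306, 0.593 and 0.610 TPM in Sst.1, Sst.2 and Sst.3, equivalent to an estimated 1.18, 3.55 and 2.37 reads. The threshold therefore ran between Sst.5, at 1016 TPM, and VGT3.2, at 652 TPM. The Pv+ cells had 3808, 3399, 12266, 3142 and 3697 TPM. Tyrobp lies on chromosome 7 (GRCm38, 30413760 to 30417585, plus strand) and no other annotated gene overlaps it.

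**Figure D1:**
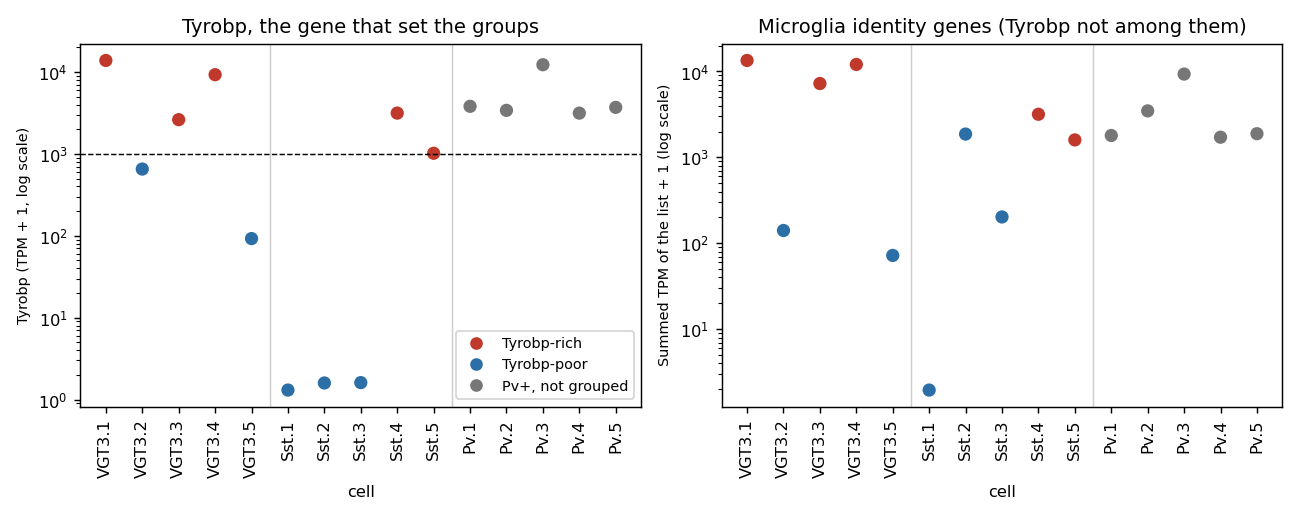
Level of Tyrobp (left) and summed level of the 23 microglia identity genes (right) in each of the 15 cells, in TPM + 1 on log axes, with 1 point per cell and the dashed line at the threshold of 1000 TPM. Tyrobp-poor cells reach 652 TPM of Tyrobp, and the Tyrobp-poor cell Sst.2 has 1867 TPM of identity genes, more than the Tyrobp-rich cell Sst.5 with 1596 TPM.

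The other microglia identity genes were higher in the Tyrobp-rich cells as a group but not in every cell. The list held 23 genes, Tyrobp not among them, and their summed level was 13424 TPM in VGT3.1, 7234 in VGT3.3, 12068 in VGT3.4, 3175 in Sst.4 and 1596 in Sst.5. In Tyrobp-poor cells the sum was 140 TPM in VGT3.2, 71.3 in VGT3.5, 0.959 in Sst.1, 1867 in Sst.2 and 202 in Sst.3. The groups overlapped, through Sst.2 alone. At least 1 TPM was reached by 23, 15, 20, 19 and 10 of the 23 genes in VGT3.1, VGT3.3, VGT3.4, Sst.4 and Sst.5, and by 4, 3, 0, 2 and 5 of them in VGT3.2, VGT3.5, Sst.1, Sst.2 and Sst.3. By this count the groups were apart. The 22 members that averaged 1 TPM or more all had a positive difference, with a median of 4.03. The median over all 12291 genes with such a mean was -0.24. Members at 0 in every Tyrobp-poor cell, such as Fcgr3 and Siglech, passed this filter through the Tyrobp-rich cells and could not have a negative difference. The count of positive members is therefore partly fixed by the filter, and the list was chosen with earlier results of these data known. Within VGT3+ cells the list's median difference was 5.29 and within Sst+ cells 3.29.

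**Figure D2:**
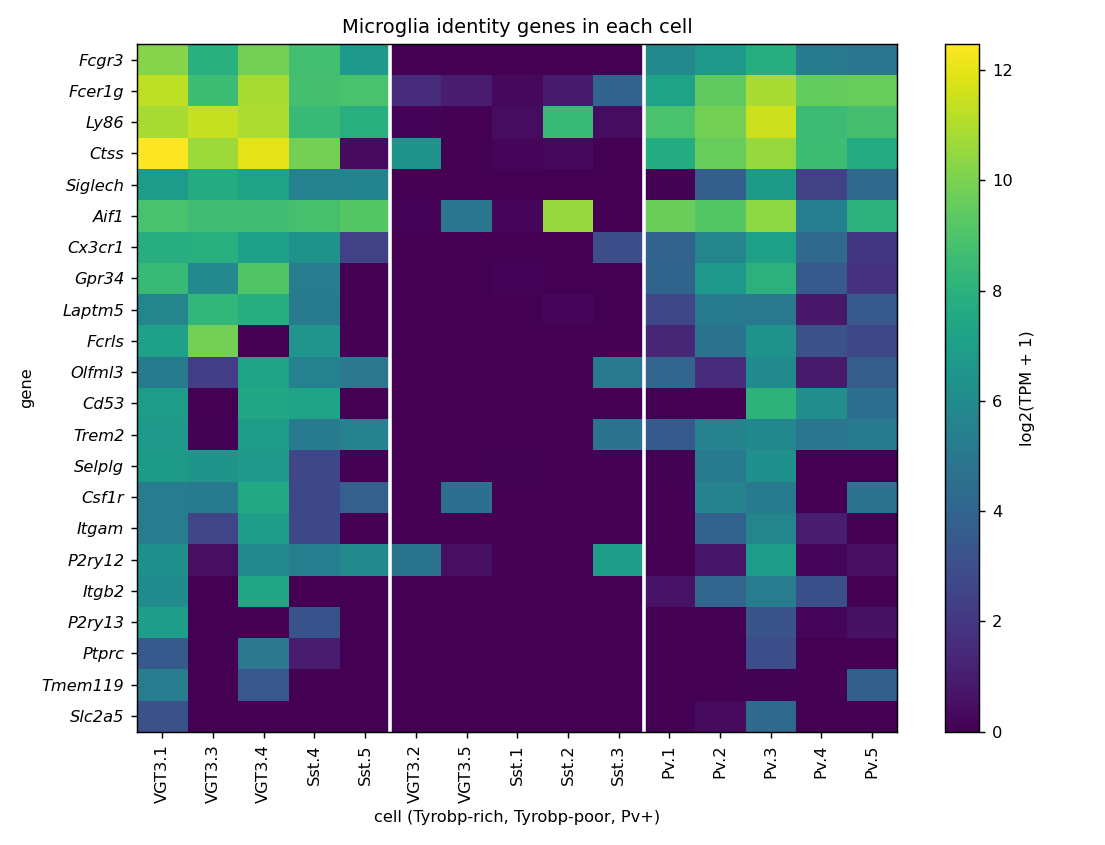
Level of 22 of the 23 microglia identity genes, as log2(TPM + 1), in each cell, with genes ordered by the difference between the groups and white lines between the 5 Tyrobp-rich, 5 Tyrobp-poor and 5 Pv+ cells. Tyrobp-poor cells are mostly at or near 0, with Aif1 and Ly86 in Sst.2 as the brightest exceptions, and Sst.5 lacks several genes that the other Tyrobp-rich cells hold.

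Of the 12291 genes, 30 were higher in every Tyrobp-rich than in every Tyrobp-poor cell of the same type, in both types, with a difference of at least 1, which is 0.244% of all genes. The reverse held for 75 genes, or 0.61%. At any size of difference, 33 genes were higher and 79 lower without overlap in both types, while 184 were apart in both types but in opposite directions. The count of 30 includes Tyrobp itself, and both counts use the contrast that set the groups. Among the 23 identity genes 6 were in the first group (Fcgr3, Fcer1g, Siglech, Ctss, Trem2 and Csf1r) and none in the second. In library batch G709 alone, with 1 VGT3+ cell in each group, 277 genes were higher and 283 lower. With each gene centred within type and batch, 50 were higher and 100 lower. Overlap was then also checked only between cells of the same type and batch, which is easier to meet. The rise in these counts is therefore not a measure of batch. Leaving out 1 cell at a time gave 36 to 79 higher and 106 to 179 lower genes. With values under 1 TPM set to 0, 25 genes were higher and 63 lower. Ctss, Trem2, Ndufs3, Gngt2, Cux1 and Gm12164 then dropped out of the higher genes, because 1 of their cells had stood above the others by less than 1 TPM.

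**Figure D3:**
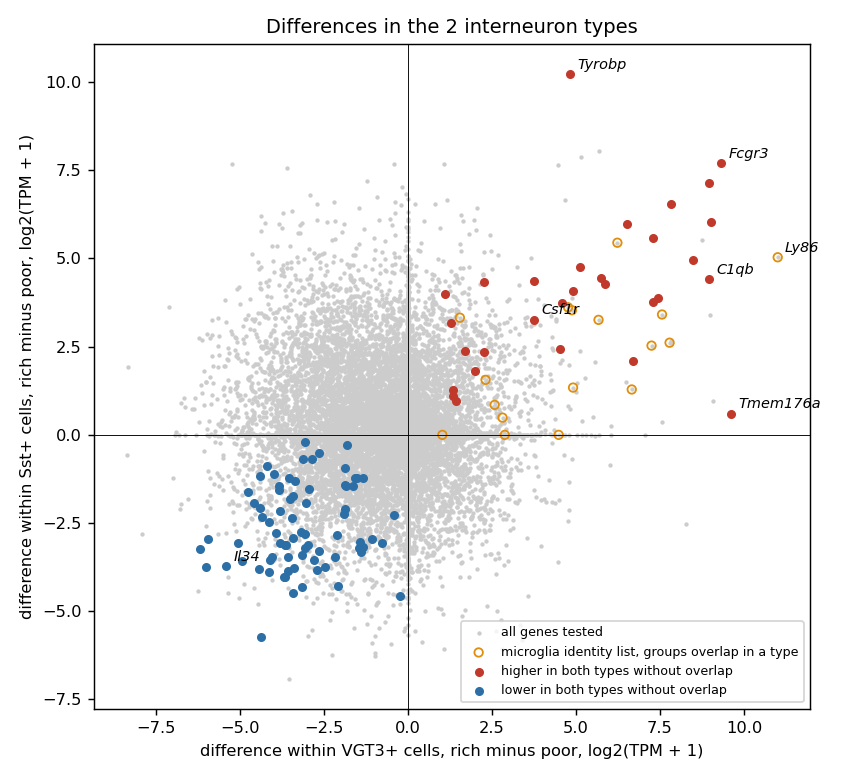
Difference between Tyrobp-rich and Tyrobp-poor cells within VGT3+ cells (horizontal) and within Sst+ cells (vertical), in log2(TPM + 1), for 12291 genes, with the 30 higher genes in red, the 75 lower genes in blue and the other microglia identity genes as orange circles. Fcgr3 lies at 9.33 and 7.70, Ly86 at 11.00 and 5.03, and Tmem176a at 9.61 and 0.60.

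Some receptors that signal through Tyrobp or Fcer1g were among the higher genes, and others were not. Fcgr3, a low-affinity receptor for immunoglobulin G, was at 1180, 239 and 932 TPM in VGT3.1, VGT3.3 and VGT3.4 and at 416 and 103 TPM in Sst.4 and Sst.5, and was listed at 0 in all 5 Tyrobp-poor cells. Its reads can be shared with other Fcgr genes of like sequence. Siglech, a sialic acid binding receptor of microglia, was at 119, 203, 152, 44.1 and 49.3 TPM in the same cells and also at 0 in every Tyrobp-poor cell. Fcer1g, the second adaptor, was at 2522, 389, 1867, 440 and 475 TPM against 2.04, 0.961, 0.197, 0.893 and 14.6 TPM in VGT3.2, VGT3.5, Sst.1, Sst.2 and Sst.3, a difference of 7.73. Its groups were far apart, with the lowest Tyrobp-rich cell at 389 TPM and the highest Tyrobp-poor cell at 14.6 TPM. Trem2, a lipid-sensing receptor, was less clear. It had 106 and 123 TPM in VGT3.1 and VGT3.4 and 33.0 and 45.0 TPM in Sst.4 and Sst.5, but 0.0672 TPM in VGT3.3 and 25.7 TPM in the Tyrobp-poor cell Sst.3. Fcgr1 was not among the higher genes. Its level was 65.4, 316, 0, 14.5 and 0 TPM in VGT3.1, VGT3.3, VGT3.4, Sst.4 and Sst.5, and 0 in all Tyrobp-poor cells.

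The list of Tyrobp signalling genes held 17 members, of which 14 were above 0 in some cell, 4 were among the higher genes (Fcgr3, Fcer1g, Siglech and Trem2) and none among the lower ones, and its median difference was 2.60. These 4 also stand in the identity list. Syk, the kinase that binds the adaptors, was listed at 0 in all 15 cells. Ptpn6, a phosphatase that opposes the signal, was at 114, 0, 11.6, 21.0 and 35.5 TPM in VGT3.1, VGT3.3, VGT3.4, Sst.4 and Sst.5, and at 37.3 TPM in Sst.2 with 0 in the other Tyrobp-poor cells. Hcst, which encodes the sister adaptor DAP10, was above 1 TPM in Sst.4 alone among the 10 cells, at 90.2 TPM, and at 234, 136 and 148 TPM in 3 Pv+ cells. Blnk, an adaptor that Syk phosphorylates in B cells, was at 26.5, 89.4, 78.0, 8.47 and 38.1 TPM in the Tyrobp-rich cells and at 0 in all Tyrobp-poor cells.

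Ctss, the lysosomal protease cathepsin S, had the highest mean of the identity genes over the 10 cells, though not the highest level in every cell. It was at 5694, 1627 and 3997 TPM in the Tyrobp-rich VGT3+ cells and at 939 TPM in Sst.4, but at 0.269 TPM in Sst.5. In Tyrobp-poor cells it was at 86.4 TPM in VGT3.2 and at 0.246 TPM or less in the others, so that Sst.5 was not distinguishable from them. Csf1r, the receptor for the survival factors Csf1 and Il34, was at 38.7, 35.4, 190, 5.53 and 13.2 TPM in the Tyrobp-rich cells. Among the Tyrobp-poor cells it was at 22.4 TPM in VGT3.5 and at 0 in the rest. The groups therefore overlapped across types and were apart only within each type.

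Ly86 and Aif1 showed where Tyrobp and the identity genes parted. Ly86, a secreted partner of a Toll-like receptor homologue, was at 1838, 2655 and 1981 TPM in VGT3.1, VGT3.3 and VGT3.4 and at 0.0815 TPM or less in VGT3.2 and VGT3.5. In Sst+ cells it was at 334 and 234 TPM in Sst.4 and Sst.5, and at 347 TPM in Sst.2 against 0.346 and 0.345 TPM in Sst.1 and Sst.3. Aif1, the calcium-binding protein stained as Iba1, was at 482, 407, 405, 461 and 584 TPM in the Tyrobp-rich cells and at 1519 TPM in Sst.2. Sst.2 thus had more Ly86 and Aif1 than Sst.5, yet had an estimated 3.55 reads of Tyrobp and was at 0 for 18 of the 23 identity genes. The opposite was seen in VGT3.2, with 652 TPM of Tyrobp but 140 TPM of identity genes in all, most of it Ctss.

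Cx3cr1, P2ry12 and Tmem119, picked with their values in view, were not above all Tyrobp-poor cells in each Tyrobp-rich cell. Cx3cr1, the receptor for the neuronal chemokine Cx3cl1, was at 216, 236, 130, 82.3 and 4.33 TPM in the Tyrobp-rich cells and at 6.75 TPM in Sst.3. P2ry12, a receptor for released ADP, was at 75.6, 0.419, 57.2, 40.7 and 58.2 TPM in the Tyrobp-rich cells, below the 122 TPM of Sst.3 in each. Tmem119 was above 0 in VGT3.1 and VGT3.4 alone of the 10 cells, at 36.9 and 9.61 TPM.

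The C1q chains were higher in Tyrobp-rich than in Tyrobp-poor VGT3+ cells, and 2 of the 3 chains also in Sst+ cells. C1qb, a chain of the C1q molecule that tags material for removal, was at 3796, 1171, 5728, 843 and 493 TPM in VGT3.1, VGT3.3, VGT3.4, Sst.4 and Sst.5. In VGT3.2, VGT3.5, Sst.1, Sst.2 and Sst.3 it was at 33.7, 0, 0, 175 and 158 TPM, which gave a difference of 6.42. C1qa was lower throughout, at 42.4, 7.67, 108, 60.7 and 19.9 TPM in the Tyrobp-rich cells and at 1.39 TPM or less in the Tyrobp-poor cells. C1qc, the third chain, was at 443, 62.5 and 243 TPM in the Tyrobp-rich VGT3+ cells, but at 0.678 TPM in Sst.4 and 0 in Sst.5, so it was not among the higher genes. Of the 7 complement genes that averaged 1 TPM or more, 2 were higher and none lower, and the list's median difference was 1.04. The lowest summed level of complement genes in a Tyrobp-rich cell was 529 TPM and the highest in a Tyrobp-poor cell was 244 TPM.

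Of the 30 higher genes, 11 stand in 1 or more of the 9 lists of immune and lysosomal genes, and 19 in none of them. The 19 include Tyrobp, which was kept out of every list. The share of all compared genes that stand in these lists is not given, so the 11 have no background. Some outside the identity list are known from leukocytes. Pycard, the inflammasome adaptor ASC, was at 134, 614, 140, 97.9 and 87.5 TPM in the Tyrobp-rich cells and at 0 in all Tyrobp-poor cells. Lsp1, an actin-binding protein of leukocytes, was at 87.8, 172, 48.1, 72.1 and 54.3 TPM and also at 0 in the Tyrobp-poor cells. Arhgdib, a regulator of small GTPases in blood cells, was nearly even among the Tyrobp-rich cells, at 447 to 646 TPM, and reached 137 TPM at most in the Tyrobp-poor cells. Cd52, a small surface glycoprotein, was at 2242, 67.9, 1099, 91.1 and 93.4 TPM against 0.436 TPM or less. Fcgr3, Siglech, Pycard, Lsp1 and Blnk were the 5 higher genes listed at 0 in every Tyrobp-poor cell.

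A few higher genes were abundant in Tyrobp-poor cells too. B2m, the light chain of class I histocompatibility molecules, was at 6212, 2525, 6105, 12064 and 3548 TPM in the Tyrobp-rich cells and at 1365, 1389 and 1898 TPM in the 3 Tyrobp-poor Sst+ cells. It was at 609 TPM in VGT3.2 and 2.15 TPM in VGT3.5, and its difference was 6.71 within VGT3+ and 2.09 within Sst+ cells. Tmem176a, a membrane protein whose gene overlaps Tmem176b, was at 638, 1479 and 501 TPM in the Tyrobp-rich VGT3+ cells and 0 in the other VGT3+ cells. In Sst+ cells it was at 659 and 522 TPM against 493, 421 and 278 TPM, a difference of only 0.60. Sepp1, now named Selenop, which carries selenium, was at 192 to 655 TPM in the Tyrobp-rich and at 0 to 133 TPM in the Tyrobp-poor cells. It overlaps Ccdc152, and the kit does not mark strand, so reads of the 2 genes cannot be told apart.

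Promoters of higher genes are shown for a purine-rich box of the kind bound by PU.1, the transcription factor that sets the myeloid programme. The letters GAGGAAGT were searched on both strands in RefSeq promoters of GRCm38.p6, each 300 bases long with 250 before the start; this motif was chosen after the values were seen. Of the 30 higher genes 22 had a promoter in the table and 3 of these held the letters (Ctss, Pycard and Sepp1), or 13.6%, against 3.69% of all 27025 genes in the table. The genes were chosen by their values, and a match is a description of the sequence and not a binding site. The windows for 2 of them, 100 bases before the start and 10 bases from it, lie at chr3:95526686-95526795 on the plus strand and chr7:127993858-127993967 on the minus strand, and the capitals mark the motif as read on the opposite strand.
Ctss: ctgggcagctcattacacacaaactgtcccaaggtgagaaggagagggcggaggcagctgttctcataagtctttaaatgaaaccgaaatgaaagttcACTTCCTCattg
Pycard: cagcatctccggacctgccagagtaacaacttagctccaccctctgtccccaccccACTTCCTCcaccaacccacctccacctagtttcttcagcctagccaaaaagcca
In Ctss the box starts at -2 and in Pycard at -44, counted from the start. Spi1, which encodes PU.1, was above 0 in VGT3.1 alone among the 10 cells, at 6.62 TPM.

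Lysosomal genes had a smaller median difference than the identity genes. The list's median difference was 0.74, with 17 of 23 members positive and 6 negative, and 2 members were among the higher genes. One was Ctss and the other Ctsd, the aspartic protease cathepsin D, at 804, 2072 and 880 TPM against 508 and 390 TPM in VGT3+ cells and at 1065 and 1496 TPM against 595, 747 and 457 TPM in Sst+ cells. Its difference was 1.18. Ctsl, a related cysteine protease, was at 471 to 2956 TPM in the Tyrobp-rich and 788 to 2974 TPM in the Tyrobp-poor cells, and these ranges overlapped almost fully. Cd63, a membrane protein of late endosomes, was at 0 in VGT3.3 and VGT3.4 and at 247 TPM or more in all other cells. Cd68, a lysosomal protein of phagocytes, was at 537, 0, 22.6, 79.7 and 509 TPM in the Tyrobp-rich cells and at 0.129 TPM or less in the Tyrobp-poor cells.

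The genes that microglia switch on in disease were mixed. Their median difference was 0.77, with 12 of 15 members positive, and Cd52 was the only member among the higher genes. Apoe, a lipid carrier that astrocytes also make, was at 947, 217, 379, 111 and 988 TPM in the Tyrobp-rich cells and at 383 TPM in Sst.1, with 0 in the other 4 Tyrobp-poor cells. Lyz2, the lysozyme of myeloid cells, was at 2758, 226, 273, 128 and 0.0962 TPM in the Tyrobp-rich cells and at 196 TPM in Sst.2. Fabp5 and Cd9, both also made by other cells, had differences of -0.20 and 0.11.

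Chemokines set VGT3.1 apart from the other Tyrobp-rich cells. Ccl4 was at 13510 TPM, Ccl3 at 8261 TPM and Ccl12 at 3111 TPM in VGT3.1, while in VGT3.4, with 9268 TPM of Tyrobp, all 3 were listed at 0. These chemokines attract monocytes and T cells. Over the list of 19 chemokines and cytokines the sum was 27247 TPM in VGT3.1, 572 in VGT3.3, 164 in VGT3.4, 345 in Sst.4 and 354 in Sst.5, against 0.146 to 117 TPM in the Tyrobp-poor cells. The sums did not overlap, but no single member was among the higher genes. Without VGT3.1 the list's median difference changed from 1.74 to 0. Ccl6 was the most widespread, at 1613, 570, 164, 125 and 0 TPM in the Tyrobp-rich cells and under 0.1 TPM in all Tyrobp-poor cells.

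**Figure D4:**
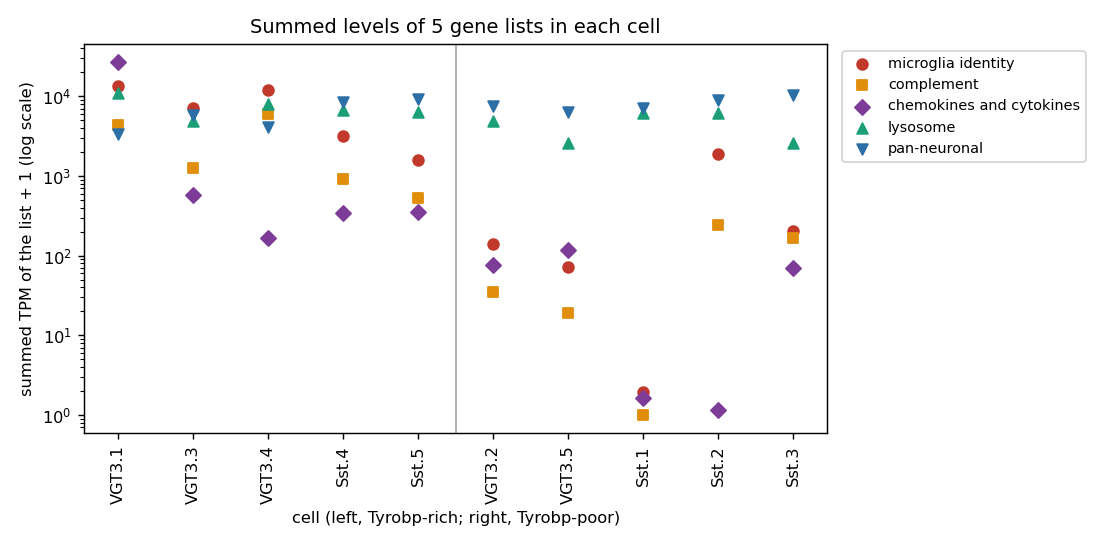
Summed level of 5 gene lists, as TPM + 1 on a log axis, in the 5 Tyrobp-rich (left) and the 5 Tyrobp-poor cells (right), with 1 symbol per list and cell. Complement sums are 529 TPM or more on the left and 244 TPM or less on the right, chemokines reach 27247 TPM in VGT3.1 only, and pan-neuronal sums lie between 3380 and 10431 TPM.

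Other immune genes gave fewer differences. Ifitm3, an interferon-induced membrane protein, was at 0, 472, 288, 95.2 and 730 TPM in the Tyrobp-rich cells and at 0 in all Tyrobp-poor cells, while the interferon-induced list had 5 of 8 members positive and none among the higher or lower genes. Of the antigen presentation genes B2m alone was among the higher genes, out of 6 that averaged 1 TPM or more. Markers of border macrophages were few and scattered over single cells, and those of other leukocytes were nearly absent. Mrc1, Pf4 and Cd163, which define border macrophages, were listed at 0 in all 15 cells, and 4 of the 11 genes of that list were above 0 in any of the 10 cells. The highest border macrophage sum was 233 TPM, nearly all of it Folr2 in VGT3.3. Lyve1 was at 123 and 126 TPM in the Tyrobp-poor cells Sst.1 and Sst.2, and Dab2 at 43.9 TPM in the Tyrobp-rich cell Sst.5. Of 15 markers of other leukocytes 1 was above 0 in the 10 cells, at 0.183 TPM, and their sum reached 20.6 TPM in Pv.1.

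Markers of other brain cells were not ordered by Tyrobp. The summed level of 12 astrocyte markers was 248 to 3557 TPM in the Tyrobp-rich and 284 to 3281 TPM in the Tyrobp-poor cells, and for the oligodendrocyte lineage it was 5.88 to 1363 and 59.1 to 671 TPM. Endothelial and mural markers reached 36.0 TPM in the Tyrobp-rich and 138 TPM in the Tyrobp-poor cells, and fibroblast markers 0.0512 TPM at most. In none of these lists was any gene among the higher or the lower ones. The median difference was -0.05 for astrocytes and -0.26 for the oligodendrocyte lineage. Mitochondrially encoded transcripts took 7.76% to 19.4% of the TPM in the Tyrobp-rich cells and 6.39% to 14.1% in the Tyrobp-poor cells, with 12 of 13 genes positive and a median difference of 0.39.

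**Figure D5:**
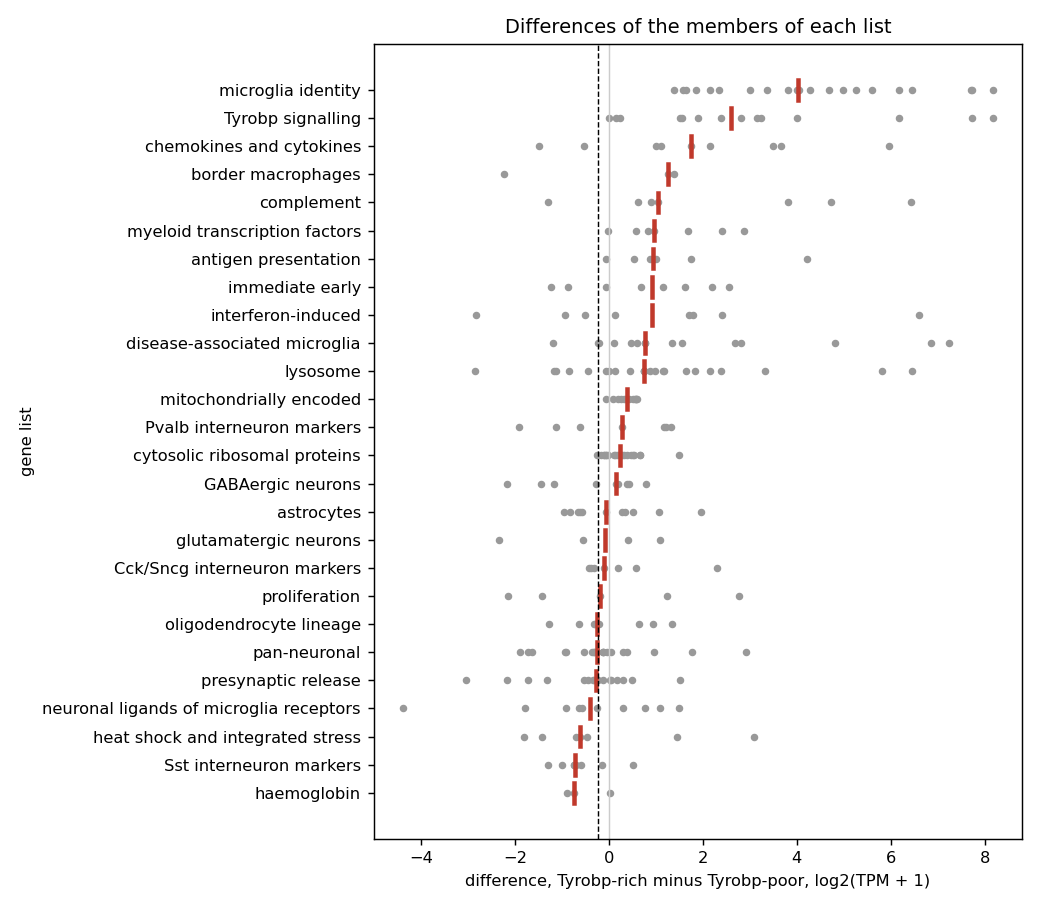
Difference between Tyrobp-rich and Tyrobp-poor cells, in log2(TPM + 1), for the members of each list (grey points) with the list's median (red bar), and the median of all 12291 genes as a dashed line at -0.24, for lists in which 3 or more members averaged 1 TPM. The microglia identity list has the highest median, at 4.03, and pan-neuronal genes lie near the dashed line at -0.26.

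Neuronal genes differed less than microglia genes, and not alike in the 2 types. Of 21 pan-neuronal genes 6 had a positive and 15 a negative difference, none was among the higher or lower genes, and the median was -0.26, near the -0.24 of all genes. The list's median was -0.63 within VGT3+ and 0.27 within Sst+ cells, where the medians of all genes were -0.51 and 0.00. Summed pan-neuronal levels were 3380, 5797 and 4061 TPM in the Tyrobp-rich and 7582 and 6327 TPM in the Tyrobp-poor VGT3+ cells, without overlap. In Sst+ cells they were 8534 and 9202 TPM against 7058, 8939 and 10431 TPM, with overlap. Snap25, a protein of synaptic vesicle fusion, was at 525, 838 and 629 TPM against 922 and 865 TPM in VGT3+ cells. In Sst+ cells it was at 1470 and 2093 TPM against 773, 507 and 1410 TPM. Gad1 and Gad2, which make GABA, had differences of 0.16 and 0.42 with overlapping groups. The markers of each cell's own interneuron class had a median difference of -0.61 within type, with 5 of 15 positive. TPM add up to the same total in every cell, and the identity genes took 1.34% of it in VGT3.1, the cell with the highest share. This share leaves out other genes of the kind. In VGT3.1, Tyrobp was at 13826 TPM, chemokines and cytokines added up to 27247 TPM and complement genes to 4409 TPM. The part of this total in the neuronal levels was not tested.

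Among the 75 lower genes, Il34 was the 1 member of the list of neuronal ligands for microglia receptors. Its level was 125, 0, 0, 84.1 and 0.124 TPM in VGT3.1, VGT3.3, VGT3.4, Sst.4 and Sst.5, and 185, 241, 146, 119 and 121 TPM in VGT3.2, VGT3.5, Sst.1, Sst.2 and Sst.3. The groups were apart within each type but met across types, with VGT3.1 at 125 TPM above Sst.2 at 119 TPM, and the difference was -4.38. The values of 0 were in VGT3.3 and VGT3.4, the cells with the fewest genes above 0. The Pv+ cells, of another class and mouse line, were all above the Tyrobp threshold. Il34 was at 4.26, 8.33, 51.6, 43.4 and 1.66 TPM in Pv.1 to Pv.5. It was highest in Pv.3, which also had the most Tyrobp of the Pv+ cells, at 12266 TPM. Cd200 and Cx3cl1, the ligands of other microglia receptors, had differences of -1.78 and -0.64 and overlapping groups. The list as a whole had 4 of 10 members positive and a median difference of -0.41.

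The genes with the most negative difference were otherwise of mixed function. Mblac2 was at 32.9 TPM in VGT3.1 and 0 in the other Tyrobp-rich cells, and at 37.9, 113, 110, 32.1 and 40.3 TPM in the Tyrobp-poor cells. Aacs, an enzyme of ketone body use in lipid synthesis, was at 31.4 TPM in Sst.4 and 0 in the other Tyrobp-rich cells, against 48.0 to 110 TPM. Necab2, a neuronal calcium-binding protein, was at 0 in every Tyrobp-rich cell, against 221, 22.4, 5.84, 56.8 and 1.07 TPM. PISD was annotated on an unplaced scaffold and may share reads with a copy elsewhere. Of the list of presynaptic release genes, Stx1a, the plasma membrane syntaxin, was the 1 lower gene out of 16, with a difference of -3.05. Nrxn2, a presynaptic adhesion protein, had a difference of -1.49. It was low throughout, at 0 to 2.98 TPM in the Tyrobp-rich and 3.01 to 17.2 TPM in the Tyrobp-poor cells.

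The cells VGT3.3 and VGT3.4, with the fewest genes above 0, were both Tyrobp-rich. Of the 75 lower genes, 62.7% were at 0 in VGT3.3 and 57.3% in VGT3.4. Of all 12291 genes, 60.5% and 55.3% were at 0 in these cells. These shares are not like for like, because a lower gene must be above 0 in every Tyrobp-poor cell and the other genes need not be. Within VGT3+ cells alone, 205 genes were higher and 1577 lower by the same rule, whereas within Sst+ cells 988 were higher and 429 lower. Without VGT3.3 and VGT3.4, 247 genes were higher and 162 lower, including all 30 of the higher and 72 of the 75 lower genes. Groups that do not overlap stay apart when cells are left out. The genes already called could therefore be lost only through the cut-offs on the difference and the mean. That they were kept does not show whether the calls depend on VGT3.3 and VGT3.4. The part of detected genes in the count was not tested. Among genes above 0 in all 10 cells, the median difference was -0.04.

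Genes most like Tyrobp in pattern were found by Pearson's r of log2(TPM + 1), centred within type, over the 10 cells and among the 6529 genes that averaged 10 TPM or more. Sgpp1, a phosphatase of sphingosine-1-phosphate, was first, at r = 0.95, followed by Cryba4 and Fcgr3 at 0.90, C1qa and D730003I15Rik at 0.89 and Ptma at 0.88. Sgpp1 was at 20.5, 9.90 and 61.9 TPM against 16.3 and 3.08 TPM in VGT3+ cells, with overlap, and at 38.1 and 45.8 TPM against 0 in all Tyrobp-poor Sst+ cells. Cryba4 was at 123 and 340 TPM in Sst.4 and Sst.5, and in VGT3+ cells above 0 only in VGT3.1, at 8.46 TPM. The points share library depth and number of detected genes.

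The Pv+ cells were not used for the groups and gave the only outside look at the higher genes. Of the 29 higher genes other than Tyrobp, 26 varied together with Tyrobp over the 5 Pv+ cells, by the sign of the covariance of log2(TPM + 1), or 89.7%, against 55.9% of the 10826 genes that varied. Pv.3 set this, with 12266 TPM of Tyrobp against 3142 to 3808 TPM in the other 4 cells. Without Pv.3 the share was 34.5%. Pv.3 also had the highest identity sum, 9322 TPM against 1715 to 3475 TPM, and the most genes above 0, with 11156. Of the 74 lower genes that varied in Pv+ cells, 67.6% also had a positive covariance with Tyrobp there.

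The level of other genes relative to Tyrobp varied between cells, whose Tyrobp itself ran from 1016 to 13826 TPM. C1qb was at 0.268 to 0.618 times the level of Tyrobp in the 5 Tyrobp-rich cells, but at 0.0793 to 0.131 times in the Pv+ cells, without overlap. Within batch G709 it was at 0.618 in VGT3.4, 0.268 in Sst.4 and 0.485 in Sst.5, also above all Pv+ cells. Cd52 went the other way in part, at 0.0260 to 0.162 times the level of Tyrobp in the Tyrobp-rich and 0.0536 to 0.420 times in the Pv+ cells. B2m was at 3.83 and 3.49 times the level of Tyrobp in Sst.4 and Sst.5, and at 0.449 to 0.965 times in the Tyrobp-rich VGT3+ cells, and the Tyrobp-poor Sst+ cells had 1365 to 1898 TPM of B2m with almost no Tyrobp. Fcer1g was at 0.182 times the level of Tyrobp in VGT3.1, 0.149 in VGT3.3, 0.201 in VGT3.4 and 0.140 in Sst.4, with 0.468 in Sst.5. Cell type and mouse line cannot be told apart in these ratios.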

How the data were processed

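Cytosol of 15 single interneurons was amplified with the SMART-Seq HT kit, which does not mark strand, and sequenced as 1 library per cell. Per the submitters' notes and the study's methods, the authors de-multiplexed reads with bcl2fastq, aligned them to GRCm38 with HISAT2 2.1.0, counted them per Ensembl gene with HTSeq and deposited TPM, which add up to 1000000 in every cell. No counts were used here. Read numbers are estimates from the step between low TPM values times GENCODE exon length, which came out whole within 0.02 for 73.2% to 77.5% of genes under 50 reads.

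The members and gene lists were chosen with earlier results of these data known. Genes that averaged 1 TPM or more over the 10 cells were compared, on log2(TPM + 1), after subtracting each gene's mean within its type. With 3 rich and 2 poor VGT3+ cells and the reverse in Sst+ cells, this gives 0.96 times a difference shared by both types. Genes were called higher or lower when the groups did not overlap in either type and the difference was at least 1 or at most -1. No test was run, because the groups rest on a measured value and no label names an animal. One gene of the identity list is counted in its sums and medians but is not reported here by itself. Where 1 symbol stood for several Ensembl genes, the one of highest mean was used. Genes for the text were drawn from Tyrobp, Slc17a8, Sst, up to 12 identity genes and 4 of each other list by mean TPM. The 15 largest differences in each direction among genes that averaged 10 TPM or more, and the 6 genes most like Tyrobp, were added. Trem2, Csf1r, P2ry12, Tmem119, Cd68, Apoe, Ptpn6, Hcst, Syk, Spi1, Cx3cl1, Mrc1, Pf4, Cd163, Stx1a, Nrxn2, Ndufs3, Gngt2, Cux1 and Gm12164 are named beside them, picked with their values in view. Only a part of the drawn genes is printed. Of the most negative differences these are Il34, Mblac2, Aacs, Necab2 and PISD. Values are not given for the higher gene G530011O06Rik, nor for the identity genes Fcrls, Gpr34, Laptm5 and Cd53, whose groups overlapped. The computations used Python 3.11.15, numpy 2.4.6 and pandas 2.3.3 and were tested on simulated data.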

Additional observations from a re-analysis of the deposited data

Results flagged for a closer look

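In 58 sets of 5 cells (library measures and list sums in VGT3+ and in Sst+ cells), 5 held a cell far from the other 4, where chance flags about 1 in 20. The summed level of border macrophage markers was 233 TPM in VGT3.3, against 3.45 TPM or less in the other VGT3+ cells, and came from Folr2. The Sst interneuron markers added up to 9153 TPM in VGT3.2, nearly all of it Npy, against 91.0 TPM or less in the other VGT3+ cells. Sst.4 had 10191 genes above 0, against 8081 or fewer in the other Sst+ cells. Complement genes added up to 0 in Sst.1, against 164 TPM or more in the other Sst+ cells. Lysosomal genes added up to 2616 TPM in Sst.3, against 6090 TPM or more in the other Sst+ cells.

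Among all genes compared, 184 were apart in both types but in opposite directions, 2 named genes among them, against 33 higher and 79 lower in both; the difference between types was not tested. Snap25 had a difference of -0.45 in VGT3+ and 1.09 in Sst+ cells. Pcna, a replication clamp, had a difference of -5.81 in VGT3+ cells, where it was near 0 in the 3 Tyrobp-rich cells, and 2.84 in Sst+ cells.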

How the results depend on the processing

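The median difference of the microglia identity list stayed above 3.5 in every setting on both types with a pseudocount of 1, and was 6.18 with a pseudocount of 0.1. Leaving out 1 cell at a time gave 3.56 to 4.74 for this list, 0.38 to 1.30 for lysosomal genes, -0.48 to 0.03 for pan-neuronal genes, and -0.82 to 0.33 for own-type markers, which turned positive without VGT3.4. Own-type markers were at -0.060 in batch G709 alone and at -1.17 with medians over cells, and pan-neuronal genes at 0.27 within Sst+ cells alone. The 30 higher and 75 lower genes became 36 to 79 and 106 to 179 when 1 cell was left out, 277 and 283 in batch G709 alone, 247 and 162 without VGT3.3 and VGT3.4, 205 and 1577 within VGT3+ cells, and 988 and 429 within Sst+ cells. Fewer cells make the rule easier to meet. The settings without VGT3.3 and VGT3.4, within 1 type, and with values under 1 TPM set to 0 were chosen after seeing the data. With centring within type and batch, 50 genes were higher, where overlap was also checked only within type and batch, an easier rule. The number of lists with a median of at least 1 was 5, and it was 11 with a pseudocount of 0.1, 3 without a filter, 9 at a mean of at least 10 TPM, 1 with medians over cells, 10 without VGT3.3 and VGT3.4, and 4 to 10 when 1 cell was left out. Border macrophage genes, 3 in number, had a median of -0.49 instead of 1.26 at a mean of at least 10 TPM. The share of higher genes that varied with Tyrobp in Pv+ cells was 34.5% to 96.6% when 1 Pv+ cell was left out, the lowest without Pv.3. The rescaling without microglia, mitochondrial and top 10 genes gave 37 higher and 61 lower genes, and median-of-ratios factors 33 and 67. No paired analysis was possible because the replicate numbers do not pair cells and no test was run.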
